A study of Mus musculus with 66 samples.

Results

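Tmem230, Knop1, Ei24, Ankrd29, Mesd and Cd99l2 are 6 mouse genes that recurred among the genes changed by different gene knockdowns in cultured neurons. They were selected on the outcome itself, because each was called changed after at least 3 of 9 knockdowns. They are 6 of the 30084 gene symbols in the count table and 6 of the 16145 genes with enough counts to be tested. Since the calls against the nontargeting control chose them, those differences are given below as a description and support nothing further.

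The neurons came from wildtype mouse embryos at stage E16.5, separated by sex, and all groups share that genotype. Each knockdown group received a lentivirus whose short hairpin RNA (shRNA) directs the breakdown of a matching mRNA. The targets were Tbr1, Setd5, Med13l, Mbd5, Kmt2c, Kdm6b, Dnmt3a, Chd8 and Ash1l. The controls were a nontargeting shRNA, whose columns carry the name Luc, and no virus. The virus was removed on day 6 and lysis followed on day 10, with doses that the submitters set for about 50% of the target's level. The 66 libraries form 22 groups of 3, that is 11 treatments in males and in females, so that each treatment has 6 libraries. The labels describe triplicate wells and do not say that replicates came from separate animals, so p-values measure only the spread between these libraries, which may be technical. In bulk RNA, fewer cells of a type and less RNA per cell cannot be told apart.

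Library totals ranged from 13759741 to 66558546 counts. Each target was lower in its own knockdown, at 22.9% to 45.2% of the nontargeting level. Of the neuronal marker mRNAs Rbfox3, Map2, Tubb3, Syn1, Snap25 and Stmn2, none was at 0 in any library, and the lowest value was 44.6 CPM (counts scaled by library size), for Rbfox3. A pair of male libraries had target levels that contradict their labels. In that labelled Setd5 male replicate 1, Setd5 stood at 141 CPM, against 42.9 and 42.7 CPM in the other two. In that labelled Kdm6b male replicate 1, Kdm6b stood at 39.9 CPM, against 17.2 CPM in both of its partners, and Setd5 at 44.9 CPM. The library labelled Setd5 female replicate 1 held 34.8 CPM of 4 Y-linked mRNAs, where the 32 other female libraries held at most 0.508 CPM and the 33 male libraries at least 153 CPM. Leaving out these libraries ended none of the calls with the sexes pooled that are given below.

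The 6 proteins are of different kinds. Tmem230 is a small membrane protein of secretory and recycling vesicles. Mesd is a chaperone of the endoplasmic reticulum (ER) that folds receptors of the low-density lipoprotein (LDL) receptor family, among them the Wnt co-receptors Lrp5 and Lrp6. Ei24 is an ER membrane protein that p53 induces and that is needed for autophagy. Knop1 is a lysine-rich protein of the nucleolus, Cd99l2 is a cell surface glycoprotein related to CD99, and Ankrd29 is built of ankyrin repeats. Of the knocked-down genes, Ash1l and Kmt2c encode histone methyltransferases, Kdm6b a histone demethylase, Dnmt3a a DNA methyltransferase, Chd8 a chromatin remodeller, Med13l a subunit of the Mediator complex and Tbr1 a transcription factor of cortical neurons.

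The 6 genes lie apart on 5 chromosomes. In the RefSeq annotation of GRCm38, Tmem230 spans chr2:132239492-132249059, Knop1 chr7:118842217-118855998, Mesd chr7:83883866-83900311, Ei24 chr9:36779153-36797334 and Cd99l2 chrX:71420060-71492866. RefSeq promoter windows matched 5 of the 6 genes. Shown here are the bases upstream of the start site that lie in no GENCODE M21 exon and outside every RefSeq gene span, for a pair of genes that both fell after Chd8 and Med13l shRNA. Among the 8 windows only those of Ei24 and Cd99l2 held such bases. The stretches are chr9:36797394-36797584 for Ei24 and chrX:71492867-71493099 for Cd99l2, both on the minus strand. Capitals mark GGGCGG (a GC box, which Sp family factors bind) on either strand. The motif CGGAAG (a core that ETS family factors bind) was also searched and is in neither stretch. Further motifs were searched and are not marked here. Among them, the CCAAT motif occurred 2 times in the Cd99l2 window and 0 times in the Ei24 window.
Ei24: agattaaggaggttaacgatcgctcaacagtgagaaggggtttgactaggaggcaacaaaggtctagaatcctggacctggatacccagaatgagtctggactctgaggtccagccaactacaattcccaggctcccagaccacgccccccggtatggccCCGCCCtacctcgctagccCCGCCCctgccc
Cd99l2: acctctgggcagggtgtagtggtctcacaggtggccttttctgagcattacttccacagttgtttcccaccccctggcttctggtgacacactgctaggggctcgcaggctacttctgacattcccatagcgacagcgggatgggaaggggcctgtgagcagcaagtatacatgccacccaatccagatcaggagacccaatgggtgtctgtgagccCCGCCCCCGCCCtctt
Counted over the whole 250 bases before the start site, with both strands read and overlapping matches allowed, the Ei24 window had 3 GGGCGG and the Cd99l2 window 2, both with 0 CGGAAG. The Tmem230 window, whose start site lies inside the span of the gene, had 2 CGGAAG and 0 GGGCGG. Of 3 Mesd windows, 1 held CGGAAG, and they held 1, 1 and 3 GGGCGG. The windows of Knop1, which also fell after Chd8 and Med13l shRNA, held 3 and 1 GGGCGG and 0 and 2 CGGAAG. Over all genes, CGGAAG occurs in 13.6% and GGGCGG in 32.7% of 32851 RefSeq windows of this length, and the match is a description of letters, not a site. The Ei24 and Cd99l2 windows share a hexamer that is common in promoters.

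A gene was called where its adjusted p was under 0.05 in the quasi-likelihood test of edgeR, adjusted by the Benjamini-Hochberg method over all 16145 genes, with the male and the female difference averaged. In the same direction, 323 genes (2% of those tested) were called against nontargeting in at least 3 of 9 knockdowns, 62 in at least 4, 13 in at least 5 and 2 in at least 6. Those 2 are Tmem230, higher in 8 knockdowns, and Mesd, higher in 6. Against no virus, 407 genes (2.52%) were called in at least 3 knockdowns, and Tmem230, called in 2, was no longer among them. With the replicate number as a block, 1900 and 2191 genes were called in at least 3 knockdowns against nontargeting and no virus, so the size of this class depends on the model. The block raised the calls in every knockdown. Against nontargeting it called 480 genes after Kmt2c (112 without it), 1126 after Dnmt3a (226) and 2621 after Setd5 (855). Against no virus it called 1252 after Tbr1 (273). Calls below that passed only with the block are to be read against these counts.

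**Figure D1:**
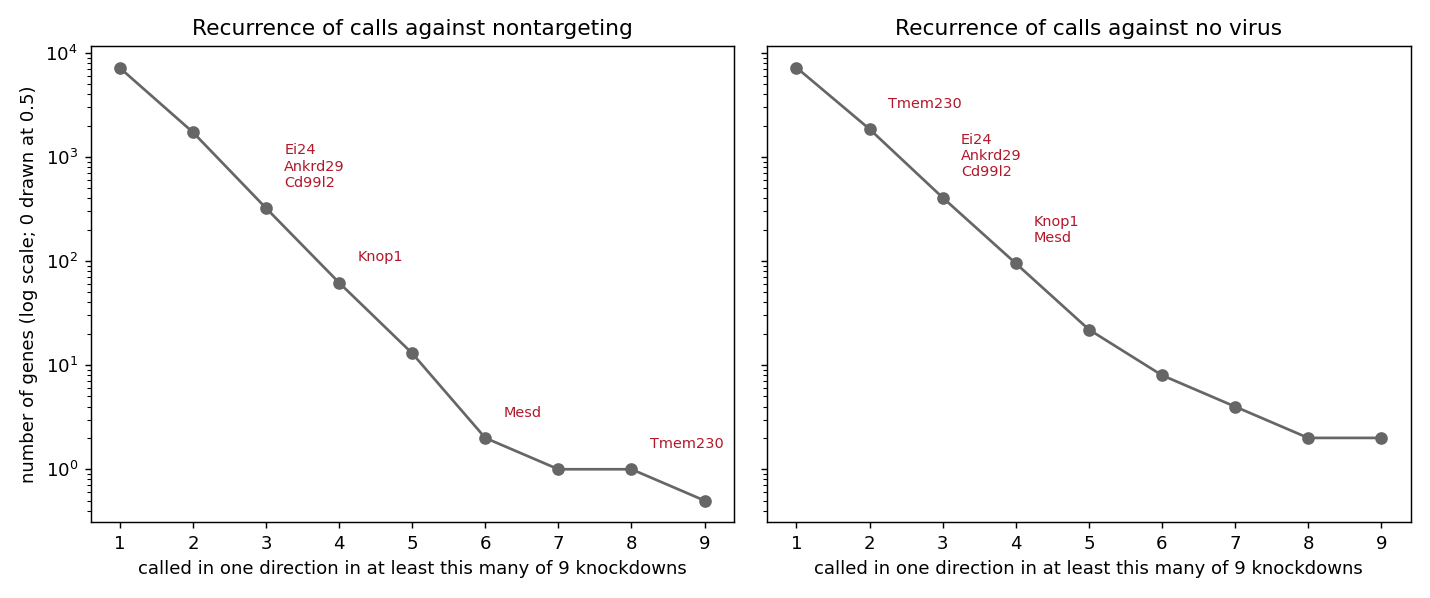
Number of genes (log axis, 0 drawn at 0.5) that share a direction of call in at least 1 to 9 knockdowns, against nontargeting (left) and against no virus (right); names mark how often each of the 6 genes was called in its more frequent direction. Tmem230 stands at 8 on the left and at 2 on the right, while Ei24, Ankrd29, Cd99l2 and Knop1 stand at the same number in both.

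Read by knockdown, Med13l shRNA was followed by calls in all 6 genes against nontargeting (24.1% of all genes were called there) and Chd8 shRNA in 5 (22.3%). Ash1l shRNA was followed by calls in 4 of the 6 (6.16% of all genes), and Dnmt3a (1.4%) and Tbr1 (1.33%) shRNA in 3 each. The counts were 2 each for Setd5 (5.3%), Kmt2c (0.694%) and Mbd5 (0.663%), and 1 for Kdm6b (0.966%). Together these are 28 calls of 54. Against no virus there were 21 calls of 54: 6 after Med13l (23.5% of all genes), 4 each after Chd8 (22.9%) and Ash1l (6.83%), 2 each after Dnmt3a (1.23%), Kmt2c (0.787%) and Tbr1 (1.69%), 1 after Setd5 (6.31%), and 0 after Kdm6b (1.05%) and Mbd5 (0.811%). Both sets use the same shRNA libraries and are given side by side, not as independent evidence. Nothing is read from the calls against nontargeting, because they chose the genes.

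Tmem230, the vesicle protein, was higher than in the nontargeting libraries after 8 of 9 knockdowns. Its nontargeting libraries held 12.8, 14.1 and 16.2 CPM (lowest, median and highest of 6) and its no virus libraries 15.3, 17.4 and 20.5 CPM. After Ash1l shRNA the values were 19.3, 24.3 and 27.8 CPM, the highest mean of the 11 treatments. Med13l shRNA gave 20.2, 21.4 and 25.7 CPM, and Tbr1 shRNA 18.6, 22.2 and 24.3 CPM. These 3 groups lay wholly above the nontargeting libraries, as did Chd8 (16.7, 19.0 and 20.8 CPM), Dnmt3a (17.5, 19.8 and 20.7 CPM), Kdm6b (17.0, 19.5 and 20.4 CPM) and Mbd5 (17.9, 18.7 and 20.7 CPM). Setd5 shRNA gave 14.96, 19.1 and 25.4 CPM, and its lowest library overlapped the nontargeting range. Kmt2c shRNA is the exception, with 11.7, 14.7 and 17.4 CPM. Ranked by mean log2 CPM, nontargeting is lowest, Kmt2c next and no virus the third, and neighbours in this order overlap throughout.

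On the log2 scale, the Tmem230 difference from nontargeting was 0.75 ± 0.10 (SE) after Ash1l, 0.62 ± 0.10 after Med13l and after Tbr1, and 0.41 to 0.45 after Chd8, Dnmt3a, Kdm6b, Mbd5 and Setd5. After Kmt2c it was 0.03 ± 0.10. The weakest call was that after Mbd5 (adjusted p = 0.0232). It was lost without nontargeting male replicate 1 or 3, nontargeting female replicate 1, Mbd5 male replicate 2 or Mbd5 female replicate 1 or 3, and the Kdm6b call without nontargeting male replicate 3, nontargeting female replicate 1 or Kdm6b female replicate 1 or 2. Fitted on only the libraries compared, 4 of the 8 calls passed: those after Dnmt3a (adjusted p = 0.0614), Kdm6b (0.286), Mbd5 (0.0598) and Setd5 (0.137) did not. Against no virus all 9 values were lower: 0.46 ± 0.10 after Ash1l (adjusted p = 0.00107) and 0.32 ± 0.10 after Med13l (adjusted p = 0.0116) passed the test. That after Tbr1, also 0.32, did not (adjusted p = 0.0759), although it did with the replicate block (0.33, adjusted p = 0.0130). It also passed with DESeq2 (adjusted p = 0.0292), an additive model of treatment and sex (0.0351), a stricter filter on low counts (0.0446) and without no virus female replicate 3 (0.0433). The other 6 ranged from -0.27 after Kmt2c to 0.16 after Dnmt3a, and the libraries of all 9 knockdowns overlapped the no virus range. Without no virus female replicate 2, the call after Med13l was lost as well (0.26, adjusted p = 0.0599), and on only the libraries compared that after Ash1l was lost (0.45, adjusted p = 0.0537).

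The nontargeting libraries themselves lay below no virus for Tmem230. The difference was -0.30 ± 0.10 on the log2 scale with the sexes pooled (unadjusted p = 0.00362, adjusted p = 1.0), -0.28 ± 0.14 in males and -0.31 ± 0.14 in females. It did not pass the adjusted test, and no gene did: edgeR called 0% of genes between nontargeting and no virus (113 genes had an unadjusted p under 0.05) and DESeq2 called 1 gene, the Y-linked Ddx3y, named after its value was seen. The nontargeting libraries enter the choice of Tmem230, so its low value there is a description. Among the other 5 genes, the same difference was -0.14 ± 0.08 for Mesd and from -0.05 to 0.11 for Knop1, Ei24, Ankrd29 and Cd99l2. Set against the mean of the other 8 knockdowns, so that no control library enters, Tmem230 was called in 2 knockdowns: higher after Ash1l by 0.33 ± 0.07 (adjusted p = 0.000551, 16.4% of all genes called) and lower after Kmt2c by 0.49 ± 0.08, a log2 difference of -0.49 (adjusted p = 2.07e-05, 6.39%). The remaining 7 differences ranged from -0.06 to 0.18, where between 5.7% and 34.8% of all genes were called (Chd8 34.3%, Dnmt3a 6.14%, Kdm6b 10.4%, Mbd5 5.7%, Med13l 34.8%, Setd5 14.3% and Tbr1 5.77%).

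**Figure D2:**
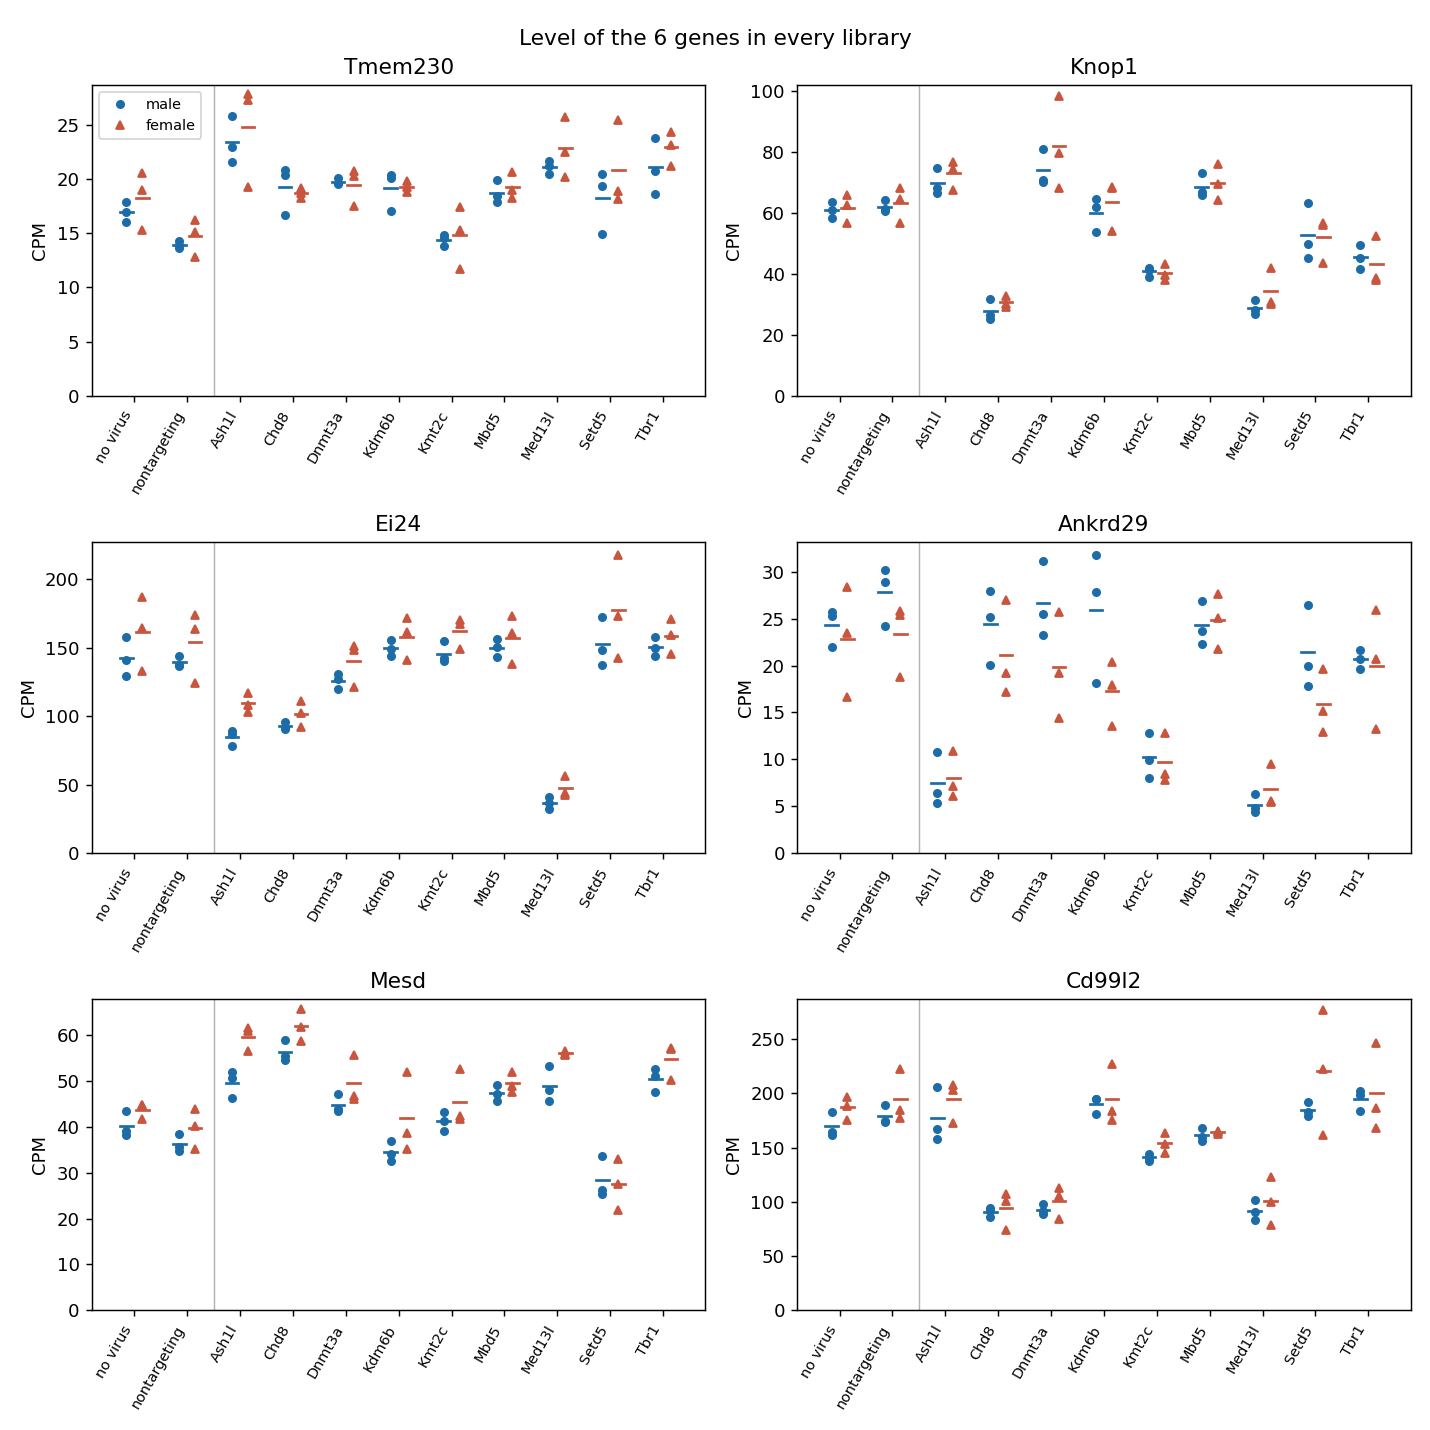
CPM (linear axis from 0) of each of the 6 genes in all 66 libraries, by treatment; circles are male and triangles female libraries, and the short lines are means of 3. For Tmem230 the nontargeting libraries lie at 12.8 to 16.2 CPM, below most knockdowns and partly below no virus at 15.3 to 20.5 CPM.

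Mesd, the receptor chaperone, was higher after 6 knockdowns and lower after 1. The nontargeting libraries held 34.9, 37.1 and 44.0 CPM and the no virus libraries 38.2, 42.6 and 44.9 CPM. Chd8 shRNA gave the highest values, 54.7, 59.0 and 65.7 CPM. Ash1l shRNA gave 46.4, 54.3 and 61.6 CPM, Tbr1 shRNA 47.6, 51.9 and 57.2 CPM and Med13l shRNA 45.7, 54.5 and 56.7 CPM. All 4 groups lay above every library of both controls, as did Mbd5 (45.7, 48.2 and 52.1 CPM). Dnmt3a shRNA gave 43.5, 46.5 and 55.8 CPM and overlapped both controls. Setd5 shRNA went the other way, with 21.8, 26.9 and 33.7 CPM, below every control library.

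Against nontargeting, Mesd was higher by 0.64 ± 0.08 after Chd8, 0.52 ± 0.08 after Ash1l, 0.47 ± 0.08 after Tbr1, 0.46 ± 0.08 after Med13l, 0.35 ± 0.08 after Mbd5 and 0.31 ± 0.08 after Dnmt3a (log2 ± SE), and it was lower after Setd5 (-0.45 ± 0.08). Against no virus it was higher after Chd8 (0.50, adjusted p = 8.34e-06), Ash1l (0.38, adjusted p = 0.00179), Med13l (0.32, adjusted p = 0.00319) and Tbr1 (0.33, adjusted p = 0.0249) and lower after Setd5 (-0.59, adjusted p = 8.98e-06). Mbd5 (0.21) and Dnmt3a (0.17) did not pass there. The Tbr1 call against no virus was lost without no virus male replicate 1 or 3, no virus female replicate 1, Tbr1 male replicate 2 or 3 or Tbr1 female replicate 1 or 2. Fitted on only the libraries compared, Mesd did not pass after Setd5 (adjusted p = 0.144 against nontargeting and 0.0729 against no virus), Dnmt3a (0.151), Mbd5 (0.0653) or, against no virus, Tbr1 (0.0976). The calls after Dnmt3a (adjusted p = 0.0428) and Mbd5 (adjusted p = 0.0256) against nontargeting lie nearest the threshold, and both were lost without nontargeting male replicate 1 or 2 or nontargeting female replicate 1 or 3. The Dnmt3a call was also lost without nontargeting male replicate 3, any male Dnmt3a library or Dnmt3a female replicate 1, and the Mbd5 call without Mbd5 male replicate 2 or 3 or Mbd5 female replicate 1 or 3. In the library labelled Setd5 male replicate 1, Mesd stood at 33.7 CPM, against 26.2 and 25.4 CPM in the other male Setd5 libraries. Without it and its Kdm6b counterpart the Setd5 difference was -0.52, and without Setd5 female replicate 1, which had the lowest Mesd value of 21.8 CPM, it was -0.37 (adjusted p = 0.00615).

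Ei24, the p53-induced ER protein, fell after 3 knockdowns and varied little elsewhere. The nontargeting libraries held 124, 141 and 174 CPM and the no virus libraries 129.6, 149.5 and 187 CPM. After Med13l shRNA 32.2, 41.6 and 56.6 CPM remained, which is 3.51-fold lower than nontargeting and is separated from all other treatments. After Ash1l shRNA the values were 78.3, 96.1 and 117 CPM, and after Chd8 shRNA 90.7, 93.7 and 111 CPM. These ranges overlap each other and lie below every control library. The other 6 knockdowns had medians from 129 CPM (Dnmt3a) to 161 CPM (Setd5). On the log2 scale the differences from nontargeting were -1.81 ± 0.09, -0.61 ± 0.09 and -0.59 ± 0.09 after Med13l, Ash1l and Chd8, and those from no virus -1.86, -0.66 and -0.64. The nearest value outside the threshold was 0.17 after Setd5 (adjusted p = 0.337).

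Knop1, the nucleolar protein, fell after 4 knockdowns. Its control levels were close: 56.8, 62.8 and 68.2 CPM in nontargeting and 56.9, 61.9 and 65.98 CPM in no virus libraries. Chd8 shRNA left 25.4, 29.7 and 32.8 CPM (2.14-fold lower than nontargeting) and Med13l shRNA 26.8, 30.5 and 42.0 CPM (1.99-fold lower). Kmt2c shRNA left 38.1, 40.6 and 43.5 CPM and Tbr1 shRNA 38.2, 43.5 and 52.6 CPM. All 4 groups lay below every control library. The other end of the order is Dnmt3a shRNA with 68.2, 75.3 and 98.4 CPM, and Ash1l shRNA with 66.6, 71.4 and 76.8 CPM.

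Against nontargeting, the log2 differences of Knop1 were -1.10 ± 0.09 after Chd8, -0.996 ± 0.09 after Med13l, -0.62 ± 0.09 after Kmt2c and -0.50 ± 0.09 after Tbr1, and against no virus -1.07, -0.97, -0.59 and -0.47. After Dnmt3a the difference was 0.32 ± 0.09 against nontargeting (adjusted p = 0.0795) and 0.35 ± 0.09 against no virus (adjusted p = 0.0457). The latter call was lost on leaving out any 1 of the no virus libraries, any 1 of the male Dnmt3a libraries or Dnmt3a female replicate 1. On only the libraries compared it was lost (adjusted p = 0.243), as was Tbr1 against no virus (adjusted p = 0.0658). The Dnmt3a difference from nontargeting passed with the replicate block (0.31, adjusted p = 0.00673). It also passed with DESeq2 (adjusted p = 0.0442), the additive model (0.0404), the stricter filter (0.0388) and without Dnmt3a female replicate 3 (0.0376). After Setd5 the difference was -0.26 ± 0.09 against nontargeting (adjusted p = 0.106) and -0.23 ± 0.09 against no virus (adjusted p = 0.158), and these passed with the block (adjusted p = 0.0187 and 0.0364). Without the library labelled Setd5 male replicate 1 they were -0.33 and -0.30 (adjusted p = 0.0244 and 0.0421). In that library Knop1 stood at 63.4 CPM, against 45.4 and 49.8 CPM in the other male Setd5 libraries.

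Cd99l2, the surface glycoprotein, fell by a similar size after 3 knockdowns. The nontargeting libraries held 173, 181 and 222 CPM and the no virus libraries 161, 179 and 197 CPM. Chd8 shRNA left 73.7, 92.6 and 107 CPM, Dnmt3a shRNA 84.0, 94.8 and 112 CPM and Med13l shRNA 78.5, 95.2 and 123 CPM. The 3 groups overlap one another and none reaches the lowest library of any other treatment, which is 138 CPM after Kmt2c shRNA. Against nontargeting the log2 differences were -1.02 ± 0.10, -0.95 ± 0.10 and -0.96 ± 0.10, that is 2.03-fold, 1.93-fold and 1.95-fold lower. Against no virus they were -0.95, -0.88 and -0.89. Kmt2c shRNA (138, 145 and 163 CPM) and Mbd5 shRNA (156, 163 and 168 CPM) lay below every nontargeting library too, but their differences of -0.34 and -0.20 did not pass (adjusted p = 0.140 and 0.779). With the replicate block the Kmt2c difference passed (-0.34, adjusted p = 0.0404).

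Ankrd29, the ankyrin repeat protein, showed the largest fold changes of the 6 genes against either control. In the RefSeq annotation of GRCm38 it spans bases 12252357 to 12306013 of chromosome 18. The nontargeting libraries held 18.8, 25.6 and 30.2 CPM and the no virus libraries 16.7, 24.4 and 28.3 CPM. Med13l shRNA left 4.38, 5.51 and 9.55 CPM (4.28-fold lower than nontargeting), Ash1l shRNA 5.36, 6.78 and 10.8 CPM (3.28-fold lower) and Kmt2c shRNA 7.79, 9.16 and 12.8 CPM (2.56-fold lower). These groups overlap one another and lie below every control library. On the log2 scale the differences from nontargeting were -2.10 ± 0.19, -1.71 ± 0.19 and -1.36 ± 0.19, and those from no virus -1.98, -1.60 and -1.24. The next was -0.46 ± 0.18 after Setd5 (adjusted p = 0.149), which passed with the replicate block (-0.47, adjusted p = 0.0104). Ankrd29 thus did not pass after Chd8 shRNA (-0.17, adjusted p = 0.586), which was followed by calls in the other 5 genes.

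**Figure D3:**
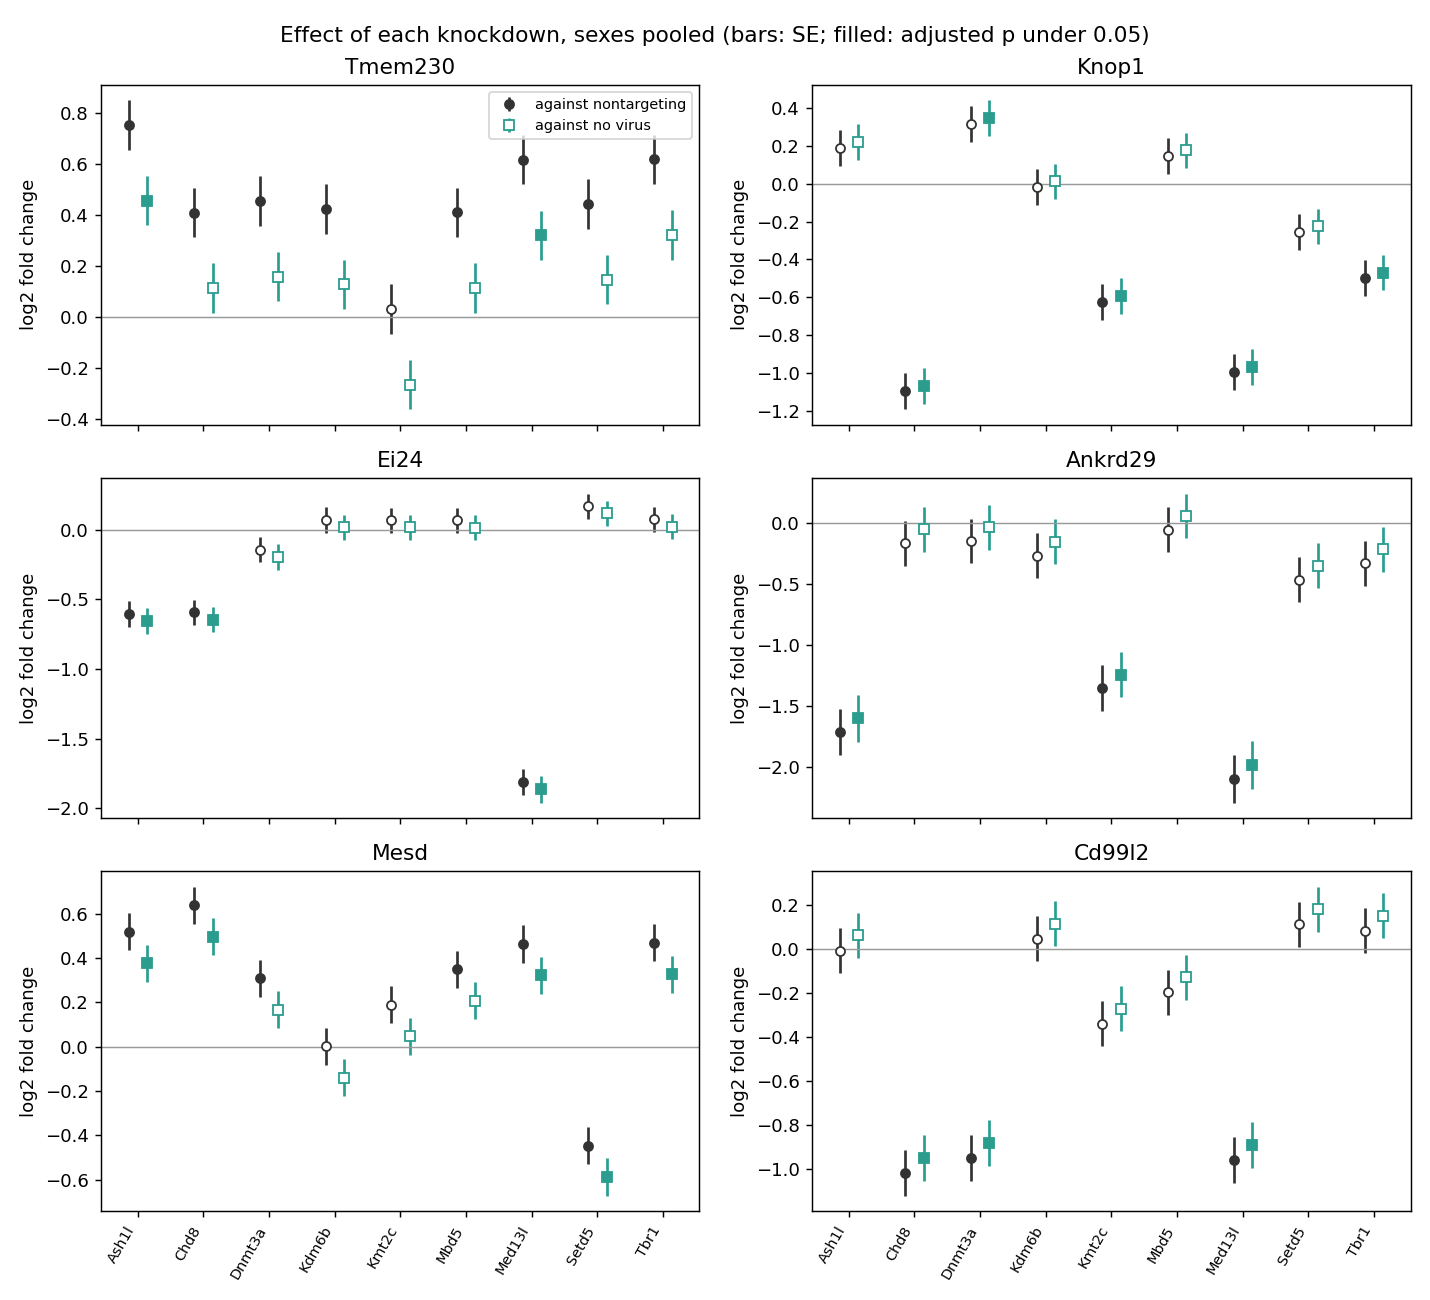
Log2 fold change of each gene after each knockdown with the sexes pooled, against nontargeting (circles) and against no virus (squares); bars are SE, filled symbols have an adjusted p under 0.05, and the y axes differ between panels. The squares of Tmem230 lie 0.30 below its circles, while both symbols nearly coincide for Ei24 and Knop1.

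Per kilobase of annotated exon, so that genes can be compared, Cd99l2 and Ei24 were the most abundant of the 6 in no virus neurons, with medians of 36.6 and 30.7 CPM per kb. Knop1 followed with 10.5, Mesd with 7.66, Ankrd29 with 6.00 and Tmem230 with 5.33 CPM per kb. The fall of Ei24 after Med13l shRNA therefore concerns an mRNA among the more abundant of the 6. The changes of Tmem230 concern the least abundant of the 6, whose library counts lay between 285 and 1302. Their rank among all tested genes was not determined.

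The libraries of both sexes entered the choice of the 6 genes, so the values by sex are a description and no independent support. Without the library labelled Setd5 female replicate 1, which held Y-linked counts, the female differences of Tmem230 (0.56, adjusted p = 0.0779) and Mesd (-0.40, adjusted p = 0.168) after Setd5 did not pass. In females, Ei24 was lower after Med13l by 3.23-fold (-1.69 ± 0.13 on the log2 scale, adjusted p = 2.97e-13), after Chd8 (-0.60 ± 0.13, adjusted p = 0.00126) and after Ash1l (-0.49 ± 0.13, adjusted p = 0.0404). The female Ei24 libraries after Med13l shRNA held 42.2, 56.6 and 44.1 CPM, against 174, 124 and 164 CPM in the female nontargeting libraries. In females, Ankrd29 was lower after Med13l (-1.77 ± 0.27, adjusted p = 6.31e-06), Ash1l (-1.54 ± 0.27, adjusted p = 0.000275) and Kmt2c (-1.27 ± 0.27, adjusted p = 0.0227). Its female libraries after Ash1l shRNA held 6.06, 10.8 and 7.17 CPM, against 25.4, 25.8 and 18.8 CPM in nontargeting. Both genes passed in females after the 3 knockdowns after which they passed in males. With each sex fitted separately, Ei24 after Ash1l (adjusted p = 0.308) and Ankrd29 after Kmt2c (adjusted p = 0.262) did not pass in females, and with no filter on low counts Ei24 after Ash1l did not either (adjusted p = 0.0675). The call of Ei24 after Ash1l was lost without any one of the 3 female Ash1l libraries or without nontargeting female replicate 1 or 3, and that of Ankrd29 after Kmt2c without Kmt2c female replicate 1 or 3 or nontargeting female replicate 1 or 2. With the replicate block Ankrd29 passed in females after Setd5 as well (-0.57, adjusted p = 0.0427).

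In males, Cd99l2 was lower after Chd8 (-0.98 ± 0.15, adjusted p = 2.63e-06), Med13l (-0.96 ± 0.15, adjusted p = 5.64e-06) and Dnmt3a (-0.95 ± 0.15, adjusted p = 0.000225). Male Cd99l2 libraries after Chd8 shRNA held 91.1, 94.1 and 86.4 CPM, against 173, 189 and 174 CPM in male nontargeting libraries. In males, Mesd was higher after Chd8 (0.63 ± 0.12, adjusted p = 0.000139), Med13l (0.43 ± 0.12, adjusted p = 0.0134) and Ash1l (0.45 ± 0.12, adjusted p = 0.0240). Male Mesd libraries after Chd8 shRNA held 59.1, 55.4 and 54.7 CPM, against 35.6, 34.9 and 38.5 CPM. After Setd5 the male difference of Mesd was -0.35 ± 0.12 (adjusted p = 0.421), and without the libraries labelled Setd5 and Kdm6b male replicate 1 it was -0.49 and passed (adjusted p = 0.0360). After Tbr1 the male Mesd difference was 0.47 ± 0.12 (adjusted p = 0.0681) and passed with the replicate block (adjusted p = 0.0150) and in a fit of the male libraries alone (adjusted p = 0.00637). It also passed with DESeq2 (adjusted p = 0.0175), the stricter filter (0.0363) and without the libraries labelled Setd5 and Kdm6b male replicate 1 (0.0447). The male call after Ash1l did not pass with no filter on low counts (adjusted p = 0.0828). Without nontargeting male replicate 1 or 2, a single male Mesd call was left, that after Chd8. The call after Ash1l was also lost without Ash1l male replicate 2 or 3 and that after Med13l without Med13l male replicate 1.

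The share of all genes called in females was 1.1% after Ash1l, 9.33% after Chd8, 0.118% after Dnmt3a, 0% after Kdm6b, 0.0991% after Kmt2c, 0.0557% after Mbd5, 10.2% after Med13l, 3.12% after Setd5 and 0.0619% after Tbr1. In males it was 1.98% after Ash1l, 9.82% after Chd8, 0.111% after Dnmt3a, 0.0867% after Kdm6b and after Kmt2c, 0.0619% after Mbd5, 8.06% after Med13l, 0.0557% after Setd5 and 0.217% after Tbr1. Ankrd29 after Kmt2c in females and Cd99l2 after Dnmt3a in males are therefore calls from comparisons with few calls in all.

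Male effects were tested against female effects, and 0 of 54 differences of the 6 genes passed, and 0 had an unadjusted p under 0.05. The lowest unadjusted p was 0.0839, for Ankrd29 after Med13l shRNA, where the log2 difference from nontargeting was -2.43 ± 0.28 in males and -1.77 ± 0.27 in females. This test called 0% of all genes in 8 knockdowns and 0.0186% after Setd5 shRNA, namely Ddx3y, Kdm5d and Mtag2, genes named after their values were seen. Without virus, a comparison that the choice of the genes did not use, none of the 6 passed the test between males and females: 0.0434% of all genes were called, 7 in number, and the 6 log2 differences ranged from -0.18 ± 0.13 for Ei24 to 0.09 ± 0.26 for Ankrd29. Cd99l2, which is X-linked, differed by -0.14 ± 0.14 there.

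**Figure D4:**
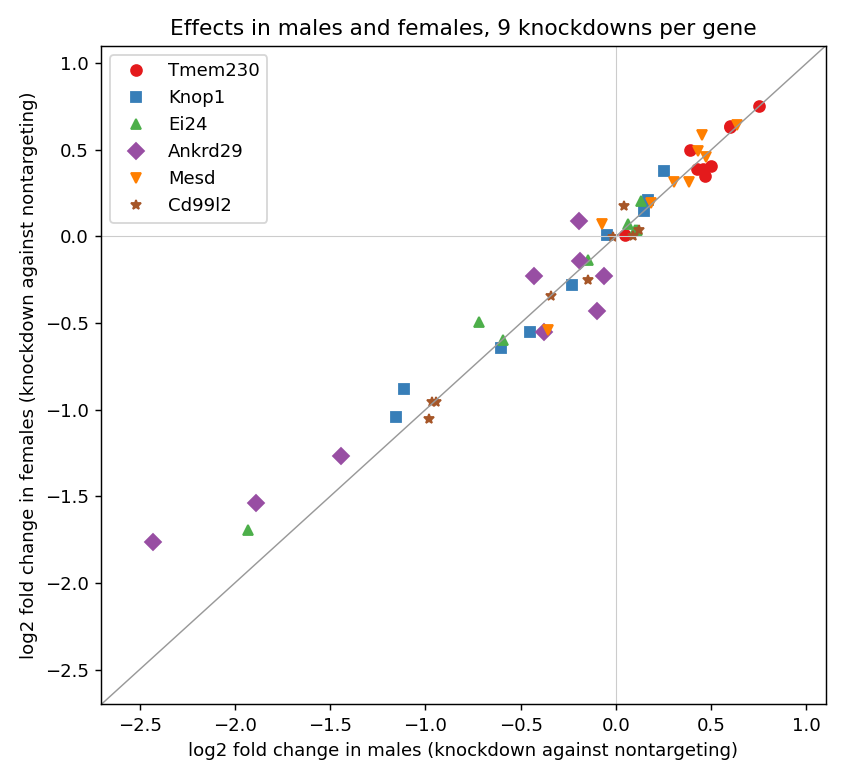
Log2 fold change against nontargeting in males (x axis) and in females (y axis), 9 knockdowns for each of the 6 genes; the diagonal marks equal effects. The points lie near the diagonal, the farthest low points being Ankrd29 and Ei24 after Med13l shRNA.

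The 12 neighbours of the 6 genes had 8 calls in 108 comparisons with nontargeting (7.41%), near the 6.99% over all genes in the 9 knockdowns. The span of Pcna, a replication clamp gene, lies 226 bases from that of Tmem230. Pcna was called after Med13l (higher by 0.69 ± 0.18) and in no other knockdown. Slc23a2 on the other side was lower after Med13l (-0.66 ± 0.15) and Tbr1 (-0.57 ± 0.15). Vps35l and Iqck beside Knop1, Mtmr1 and Hmgb3 beside Cd99l2, Stt3a beside Ei24 and Npc1 beside Ankrd29 had 0 calls against nontargeting. Fez1 beside Ei24 was lower after Med13l (-0.40 ± 0.06) and higher after Setd5 (0.22 ± 0.06). Lama3 beside Ankrd29 and Cemip beside Mesd were lower after Med13l (-1.08 ± 0.22 and -0.77 ± 0.27), and Tlnrd1 beside Mesd was lower after Kdm6b (-0.70 ± 0.15). Iqck overlaps Knop1 by 247 bases and Tlnrd1 overlaps Mesd by 476, Gm26787 overlaps Ei24 by 3524 and Gm16072, a pseudogene, overlaps Ankrd29 by 2610. The strand setting of the counting is not stated, so reads from such partners cannot be told apart. Iqck averaged 1.81 CPM, far below Knop1.

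By Pearson correlation over the 22 group means of log2 CPM, among 10787 genes with a mean of at least 5 CPM, the genes most like Ei24 were Cap1 (r = 0.960), which encodes an actin regulator, Tmx2 (0.946) and Fads3 (0.937). Among those most like Knop1 were Mob1a (0.898) and Myef2 (0.883), and those most like Cd99l2 were Mamld1 (0.920), N4bp1 (0.895) and Cdk16 (0.887). Those most like Mesd were Ankrd46 (0.894), Bloc1s3 (0.893) and Amz2 (0.883), and those most like Ankrd29 were Trp53inp2 (0.868), P2rx3 (0.866) and Ncoa1 (0.864). Tmem230 had the lowest such values, with Actl6a (0.819), Ap1g2 (0.784), a subunit of a vesicle adaptor complex, and Ppp3ca (0.748). These are among the highest of 10787 values over the same libraries and are a description. Among the 6 genes, the closest pairs were Ei24 with Ankrd29 (0.678) and Ei24 with Cd99l2 (0.639).

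Genes with a like pattern did not pass in all of the same knockdowns. Cap1 fell after Med13l (-1.51 ± 0.10) and Chd8 (-0.59 ± 0.10), as Ei24 did, but did not pass after Ash1l (-0.17 ± 0.10). Trp53inp2, whose product takes part in autophagy, fell after Ash1l (-1.92 ± 0.34) and Med13l (-1.61 ± 0.33), as Ankrd29 did, but did not pass after Kmt2c (-0.45 ± 0.33, adjusted p = 0.989). Mamld1 fell after Chd8 (-1.37 ± 0.24) and Med13l (-0.89 ± 0.24), as Cd99l2 did, but did not pass after Dnmt3a (-0.82 ± 0.24, adjusted p = 0.0642).

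The wider pathways are described by counts, to be read against the share of all genes called, which was 24.1% after Med13l, 22.3% after Chd8, 6.16% after Ash1l, 5.3% after Setd5 and 1.4% after Dnmt3a. Of 19 vesicle traffic genes read beside Tmem230, 2 were higher and 4 lower after Med13l, 1 and 5 after Chd8, and 1 and 2 after Ash1l, and 0 in either direction after Tbr1. Taking both directions together, the counts after Med13l and Chd8 are near the all-gene shares. By direction, 12.3% of all genes were called lower after Med13l and 12.5% after Chd8. Vps26a, a retromer subunit, was called most often: it was higher after Med13l (0.52 ± 0.09), Ash1l (0.35 ± 0.09) and Setd5 (0.33 ± 0.09) and lower after Chd8 (-0.27 ± 0.09). Of 19 genes of the LDL receptor family and their chaperones, read beside Mesd, 0 were higher and 4 lower after Chd8 and 3 were higher and 0 lower after Setd5. The counts of this list after the other knockdowns in which Mesd was called are not given here, so no direction relative to Mesd is read from it. The count after Chd8 is near the all-gene share of 22.3% for both directions together, while 12.5% of all genes were called lower there. Lrp11 was lower after Med13l (-0.83 ± 0.07) and higher after Setd5 (0.24 ± 0.07). Of 18 autophagy and p53 target genes read beside Ei24, 4 were higher and 0 lower after Med13l, 4 and 3 after Chd8, and 0 and 1 after Ash1l. Sqstm1, an autophagy receptor, was lower after Chd8 (-1.05 ± 0.09) and Ash1l (-0.30 ± 0.09) and stood at 0.00 ± 0.09 after Med13l.

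Of 16 nucleolar genes read beside Knop1, 0 were higher and 1 lower after Chd8, 3 and 2 after Med13l, and 0 in either direction after Kmt2c and Tbr1. Tcof1 was lower after Med13l (-1.02 ± 0.14) and in no other knockdown. Of 17 cell adhesion genes read beside Cd99l2, 0 were higher and 6 lower after Med13l (median log2 difference -0.39), 0 and 4 after Dnmt3a (median -0.24) and 0 and 1 after Chd8 (median 0.06). Of all genes, 24.1% were called after Med13l, 1.4% after Dnmt3a and 22.3% after Chd8. Called lower were 12.3%, 0.923% and 12.5%. The all-gene medians lay within 0.014 of 0. Jam2, a junctional adhesion molecule, was lower after Chd8 (-1.29 ± 0.22), Med13l (-0.78 ± 0.21) and Tbr1 (-0.78 ± 0.21). Of 38 ankyrin repeat genes, 2 were higher and 9 lower after Med13l, 2 and 8 after Chd8, and 1 and 2 after Ash1l, with 0 in either direction after Kmt2c. Taking both directions together, the counts after Med13l and Chd8 are near the all-gene shares of 24.1% and 22.3%. The lower calls alone, 9 and 8 of 38, stand beside 12.3% and 12.5% of all genes called lower. Ankrd34b was lower after Chd8 (-0.79 ± 0.16), Med13l (-0.53 ± 0.16) and Setd5 (-0.58 ± 0.16).

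Some markers of cell types were called in these knockdowns, and their counts are to be read against the share of all genes called. That share was 24.1% after Med13l, 22.3% after Chd8, 6.16% after Ash1l, 5.3% after Setd5, 1.4% after Dnmt3a and 0.966% after Kdm6b. After Ash1l shRNA, where Tmem230 was highest and Ankrd29 low, the GABAergic markers Gad1, Gad2 and Slc32a1 were all called lower. Their summed level was 463 to 712 CPM, against 927 to 1467 CPM in nontargeting and 926 to 1474 CPM in no virus libraries. There 1 of 4 excitatory markers was higher and 1 of 3 markers of dividing cells lower. After Med13l shRNA all 3 markers of dividing cells were lower (0.930 to 1.70 CPM summed, against 2.61 to 6.38 CPM in nontargeting). Also lower were 2 of 3 GABAergic, 2 of 6 astrocyte, 1 of 4 oligodendrocyte and 1 of 3 fibroblast markers, while 1 of 4 excitatory markers was higher. The 6 neuronal markers had 0 calls after either knockdown, and their sums were 5692 to 6728 CPM after Ash1l, 5463 to 6293 CPM after Med13l and 5715 to 6457 CPM in nontargeting. After Chd8 shRNA, with calls in 5 of the 6 genes, 2 of 6 neuronal markers were higher and 1 lower (5896 to 6759 CPM summed), and 2 of 4 excitatory, 2 of 3 GABAergic (823 to 1131 CPM summed), 1 of 6 astrocyte and 1 of 3 fibroblast markers were lower. After Setd5 shRNA, where Mesd was lowest, 2 of 3 markers of dividing cells (1.35 to 2.60 CPM summed) and 1 of 3 GABAergic markers were lower and 1 neuronal marker was higher. After Dnmt3a shRNA 1 GABAergic marker was lower and 1 astrocyte marker higher, and after Kdm6b shRNA 1 of 4 excitatory markers was lower. Microglial markers were near 0: P2ry12, at 0 in 46 of 66 libraries, and Tmem119, at 0 in 37, had too few counts to be tested, and the 3 tested (Cx3cr1, Csf1r and Aif1) had 0 calls in any knockdown. The part of these shifts in the results on the 6 genes was not tested.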

How the data were processed

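PolyA RNA libraries (TruSeq Stranded mRNA, per the labels' protocols) from 66 cultures were analysed from the deposited table of raw counts per gene. Per the submitters' processing notes, STAR, featureCounts and mm10 were used, with versions not given and the strand setting not stated. Of 72 library columns, 6 matched no sample and were not used. Rows without a gene symbol (0.690% to 1.41% of counts) were dropped and duplicate symbols summed. Low counts were odd in 26.7% of values from 1 to 20, so halved counts were tried. Levels are CPM on TMM-scaled library sizes, and log2 CPM used a prior count of 2.

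All 66 libraries were fitted in edgeR 4.0.16 (R 4.3.3, quasi-likelihood test, TMM, filterByExpr), with 1 mean per treatment and sex. Pooled effects average the male and female differences. P-values were adjusted by the Benjamini-Hochberg method over 16145 genes, with a threshold of 0.05. The procedure was tested on simulated data. Alternatives were DESeq2 1.42.0, size factors in place of TMM, other filters, an additive model, a replicate block, a fit on only the libraries compared, each sex fitted separately and leaving out libraries.

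Same-numbered libraries deviated together, with every pair's correlation over 0.1, in 6 of 9 knockdowns against nontargeting (all but Ash1l, Kdm6b and Med13l) and in 5 of 9 against no virus (Chd8, Kmt2c, Mbd5, Setd5 and Tbr1). The pairing comes from the replicate numbers in the labels, within each sex. A single pair under this limit makes a knockdown an exception. With nontargeting, the female pairs correlated at 0.50, 0.59 and 0.23 for Ash1l and at 0.51, 0.65 and 0.23 for Med13l. The lowest male pairs of these knockdowns stood at -0.11 and 0.02. For Kdm6b the lowest pair was 0.035 in males and 0.036 in females. The main model has no term for the replicate number.

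The 6 genes, the gene lists and the tests were chosen with earlier results of these data known. Effects in 1 sex were planned as tests on libraries that the choice had not used, but the choice pools the sexes, so they are given as a description. Named besides the 6 genes were the targets, the nearest tested neighbour on each side, the 3 genes most like each in pattern (1 of them is not reported here) and, from each list, the gene called in most knockdowns. Promoter sequences are from RefSeq on GRCm38.p6, the build called mm10.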

Additional observations from a re-analysis of the deposited data

How the results depend on the processing

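Of 49 pooled calls of the 6 genes against both controls, DESeq2, the additive model, halved counts, the stricter filter, the replicate block and leaving out the libraries labelled Setd5 and Kdm6b male replicate 1 kept all 49, and no value reversed its direction. Size factors in place of TMM lost 1, no filter lost 5 and the fit on only the libraries compared lost 12. In that last fit Tmem230 was called in 4 knockdowns against nontargeting and 1 against no virus, Mesd in 4 and 3, and Knop1 in 3 against no virus. Genes called in at least 3 knockdowns numbered 134 and 86 in that fit (nontargeting and no virus), 190 and 250 with no filter, 1900 and 2191 with the replicate block, 489 against nontargeting with DESeq2, and 416 and 534 without the libraries labelled Setd5 and Kdm6b male replicate 1. With the replicate block Tmem230 was called in 8 and 3 knockdowns, Knop1 in 6 and 7, Ei24 in 3 and 3, Ankrd29 in 4 and 3, Mesd in 7 and 5 and Cd99l2 in 4 and 3. Against no virus Knop1 after Ash1l passed only there (0.22, adjusted p = 0.0434). Against the mean of the other 8 knockdowns, an alternative chosen after seeing the data, Tmem230 was called in 2, Knop1 in 7, Ei24 in 8, Ankrd29 in 8, Mesd in 6 and Cd99l2 in 7. Of these, 1 was higher for Tmem230, 4 for Knop1, 5 for Ei24, 5 for Ankrd29, 4 for Mesd and 4 for Cd99l2. Between 5.7% and 34.8% of all genes were called there. That mean includes knockdowns after which a gene fell, so a higher call need not be a rise over a control. Male Mesd calls numbered 5 without the libraries labelled Setd5 and Kdm6b male replicate 1. Leaving out 1 library at a time, with only its own knockdown refitted for shRNA libraries, gave 6 to 8 calls for Tmem230 against nontargeting and 1 to 3 against no virus, 4 to 5 and 4 to 6 for Knop1, 5 to 7 and 4 to 5 for Mesd, and 3 to 3 against both for Ei24, Ankrd29 and Cd99l2. It gave 2 to 3 for Ei24 and for Ankrd29 in females, and 1 to 4 for Mesd and 3 to 3 for Cd99l2 in males. Genes in at least 3 knockdowns were counted only where a library of the control itself was left out. They numbered 192 to 266 (nontargeting) and 238 to 458 (no virus). Except where stated here and beside each result, the cause of these shifts was not tested.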
